A study of Mus musculus with 6 samples.

Results

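The genes followed were the antibody light chain gene Igkc, the heavy chain gene Ighm and the kappa variable segment Igkv6-29. With them were the surrogate light chain genes Igll1 and Vpreb1, the related gene Vpreb3 and the receptor subunit gene Cd79a. All were read in long-term haematopoietic stem cells (LT-HSCs) of mouse bone marrow. They are 7 of the 14986 genes of the expression table, taken by symbol, and were chosen because earlier values of these same libraries showed them apart between the genotypes. Their differences between genotypes are therefore given as a description, with no test. RNA with poly(A) tails was sequenced in 3 libraries labelled ZCCHC8 KO and 3 labelled wild type (WT), each from 1500 LT-HSCs sorted by flow cytometry after depletion of lineage-positive cells, with amplification of the cDNA. ZCCHC8 is a subunit of the nuclear exosome targeting complex, which delivers nuclear transcripts to the RNA exosome for decay. The strain, age and sex of the mice, the allele, whether deletion was germline or through a Cre driver, the sort gate and the source animal of each replicate are not stated in the labels used here, and the spread between replicates may be technical.

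B cells assemble their receptor stepwise. An immunoglobulin heavy chain is joined by recombination of gene segments in pro-B cells and is first paired with a surrogate light chain, made of a VPREB protein and IGLL1, to form the pre-B cell receptor. Light chain genes recombine later, and the finished receptor signals through CD79A and CD79B. Stem cells precede this programme, and low transcription of unrearranged segments and of some early lymphoid genes is known in multipotent cells.

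Zcchc8 stood at 10.4, 5.54 and 5.92 FPKM (a level scaled by exon length and by the reads of the library) in the KO-labelled libraries and at 8.93, 5.24 and 5.16 FPKM in the WT-labelled ones, with p = 0.5 in an exact permutation test, two-sided, where 3 libraries against 3 cannot go below 0.1. A value summed over exons does not show the loss of single exons, so the table does not check the genotype, and each direction is that of the libraries as labelled. The reads behind the FPKM came to between 18963362 and 25709663 per KO-labelled library and between 18059318 and 18909212 per WT-labelled library. All 12 listed LT-HSC markers had a row, with a summed level of 215.0 to 218.4 FPKM in KO-labelled and 312.9 to 335.2 FPKM in WT-labelled libraries. In bulk RNA, fewer cells of a type and less RNA per cell cannot be told apart. Across the 11837 genes whose mean level reached 1 FPKM, limma called 27 genes (0.228%), 21 genes higher and 6 lower in KO-labelled libraries at an adjusted p of 0.05 (0.177% and 0.0507% of the genes tested).

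The promoters of Igll1, Vpreb1, Vpreb3 and Cd79a are shown first, because these 4 genes stood higher together in the KO-labelled libraries. The other 3 members have no entry in the promoter table used. Each line gives the 250 bases before the RefSeq start site (GRCm38.p6, the assembly of mm10), 5′ to 3′ on the strand of the gene. By the gene spans given below, from the GENCODE M21 annotation, the windows of Vpreb1 and Vpreb3 lie within the gene. That of Cd79a overlaps its gene in part. For these genes that annotation begins further upstream, and the bases before that point are not shown. Capitals mark matches on either strand to the E-box CANNTG, the motif of E proteins such as the product of Tcf3, to CCCNNGGG, the half-sites of EBF factors, and to the octamer ATGCAAAT of OCT factors. The windows are chr16:16863986-16864235 on the minus strand for Igll1, chr16:16869256-16869505 on the minus strand for Vpreb1, chr10:75948050-75948299 on the plus strand for Vpreb3 and chr7:24897247-24897496 on the plus strand for Cd79a.
Igll1: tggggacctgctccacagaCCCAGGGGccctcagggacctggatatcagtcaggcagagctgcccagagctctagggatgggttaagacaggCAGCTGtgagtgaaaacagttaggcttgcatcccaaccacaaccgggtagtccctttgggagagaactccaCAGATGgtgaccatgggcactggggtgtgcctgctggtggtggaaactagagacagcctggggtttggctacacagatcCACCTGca
Vpreb1: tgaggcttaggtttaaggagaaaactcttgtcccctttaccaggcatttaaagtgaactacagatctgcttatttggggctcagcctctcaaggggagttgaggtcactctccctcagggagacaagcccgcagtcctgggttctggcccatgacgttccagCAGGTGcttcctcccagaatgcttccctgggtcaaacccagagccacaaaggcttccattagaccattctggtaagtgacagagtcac
Vpreb3: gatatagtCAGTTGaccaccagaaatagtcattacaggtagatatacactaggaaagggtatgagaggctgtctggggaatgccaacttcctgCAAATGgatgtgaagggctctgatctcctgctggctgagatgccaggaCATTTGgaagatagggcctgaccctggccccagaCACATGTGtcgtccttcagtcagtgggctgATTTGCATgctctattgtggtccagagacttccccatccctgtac
Cd79a: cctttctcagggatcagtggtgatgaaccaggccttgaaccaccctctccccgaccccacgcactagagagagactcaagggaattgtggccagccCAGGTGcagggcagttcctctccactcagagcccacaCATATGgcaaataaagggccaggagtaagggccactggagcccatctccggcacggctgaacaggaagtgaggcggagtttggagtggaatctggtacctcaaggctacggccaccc
All 4 windows hold an E-box, as do 66.2% of the 32851 promoter windows of this length. The E-box form CAGGTG or its complement CACCTG is in the windows of Igll1, Vpreb1 and Cd79a and in 17.2% of all windows. The octamer is in the Vpreb3 window, 45 to 38 bases before the start site, and in 1.601% of all windows, and CCCNNGGG is in the Igll1 window and in 11.8% of all windows. The E-boxes of Vpreb3 include a pair that overlap each other. TATAAA, searched on both strands, is in none of the 4 and in 12.4% of all. A match describes these letters and is not evidence of binding.

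Igkc, the constant region of the kappa light chain (ENSMUSG00000076609.2, chromosome 6, 70726435 to 70726966, plus strand, a single exon of 532 bases), stood at 0, 0 and 1.35 FPKM in KO-labelled libraries 1 to 3. In WT-labelled libraries 1 to 3 it stood at 773.6, 746.1 and 865.8 FPKM. The 3 WT-labelled libraries were all high and close to each other, and the groups did not overlap. These values rest on 0, 0 and 15 reads in the KO-labelled libraries and on 7432, 7262 and 8710 reads in the WT-labelled ones. A count of 0 allows a level of up to 0.219 FPKM in KO-labelled library 1 and up to 0.297 FPKM in library 2, as far as counting error goes. The mean was 0.451 ± 0.782 FPKM in KO-labelled and 795.2 ± 62.7 FPKM in WT-labelled libraries (SD, n = 3 each), a change of -9.22 on the log2(FPKM + 1) scale.

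By its mean level, Igkc ranked 12798th of the 14986 genes in KO-labelled libraries and 108th in WT-labelled ones. Its coefficient of variation among WT-labelled libraries was 7.89%, where the median of all tested genes, which reach down to a mean of 1 FPKM, was 24.0%. Neutrophil markers at a high level in the same libraries had coefficients of 3.78% (Camp), 4.10% (S100a9), 12.4% (Ngp) and 13.0% (S100a8). Among the other 6 members the coefficient ran from 28.6% for Vpreb3 to 156.4% for Igkv6-29 in the same libraries, so Igkc was the steadiest member in WT and the others varied more between libraries. Igkc was above 0 in 4 libraries, and 14985 of the 14986 rows of the table are above 0 in at least 4. No 50-base window of its transcript occurs in a transcript of another gene of the GENCODE M21 annotation. The long noncoding gene Gm30211, annotated around it on the same strand, has no row among the genes analysed here.

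Few other antibody genes could be set beside Igkc. Of 432 immunoglobulin genes and gene segments in the annotation, 217 of the heavy chain, 166 of the kappa and 12 of the lambda locus among them, 3 had a row here, namely Igkc, Igkv6-29 and Ighm. The lambda constant genes Iglc1, Iglc2 and Iglc3, the heavy chain genes Ighd, Ighg1, Ighg2b, Ighg2c, Ighg3 and Igha and Jchain, which joins secreted antibodies, had none and were not analysed. Since nearly all rows of the table are above 0 in at least 4 libraries, a segment read in the 3 WT-labelled libraries alone would usually have no row, and the missing rows do not show that Igkc stood alone. The ratio of Igkc to Ighm was 0, 0 and 0.0974 in KO-labelled libraries and 174.5, 75.9 and 86.3 in WT-labelled ones. The nearest rows downstream of Igkc showed no change of that size. Rpia, 38754 bp downstream, which encodes an enzyme of the pentose phosphate pathway, stood at 3.16, 2.57 and 2.42 FPKM in KO-labelled and 1.24, 1.55 and 3.94 FPKM in WT-labelled libraries (log2 change 0.28 ± 0.38 SE, limma adjusted p = 0.868). Eif2ak3, the stress kinase PERK, 117549 bp downstream, had a log2 change of 0.45 ± 0.41 (SE, limma adjusted p = 0.781). These neighbours were taken by position after the table had been read.

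Igkv6-29, a variable segment of the kappa locus (ENSMUSG00000076578.3, chromosome 6, 70138462 to 70139110, minus strand), stood at 3.94, 7.03 and 0.256 FPKM in KO-labelled libraries 1 to 3. It stood at 7.97, 0 and 0.564 FPKM in WT-labelled libraries 1 to 3. High and low values occurred in each group and the groups overlapped. The reads behind them were 38, 50 and 2 in KO-labelled and 54, 0 and 4 in WT-labelled libraries. The change of 0.61 on the log2 scale stood at -0.026 without WT-labelled library 2 and at 1.56 without WT-labelled library 1, so 1 library set its direction. Of the 50-base windows of its transcript, 56.0% also occur in Igkv6-20, so reads cannot be assigned to this segment with certainty.

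Ighm, the constant region of the IgM heavy chain (ENSMUSG00000076617.9, chromosome 12, 113418558 to 113422730, minus strand, 6 exon blocks), went the other way from Igkc. It stood at 17.98, 12.7 and 13.9 FPKM in KO-labelled libraries and at 4.43, 9.82 and 10.04 FPKM in WT-labelled ones. Every KO-labelled library was above every WT-labelled one, with WT-labelled library 1 lowest. The ratio of the means was 1.84, with 872, 455 and 546 reads in KO-labelled and 151, 339 and 358 reads in WT-labelled libraries. The log2 change of 0.86 stood at 0.52 without WT-labelled library 1.

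**Figure D1:**
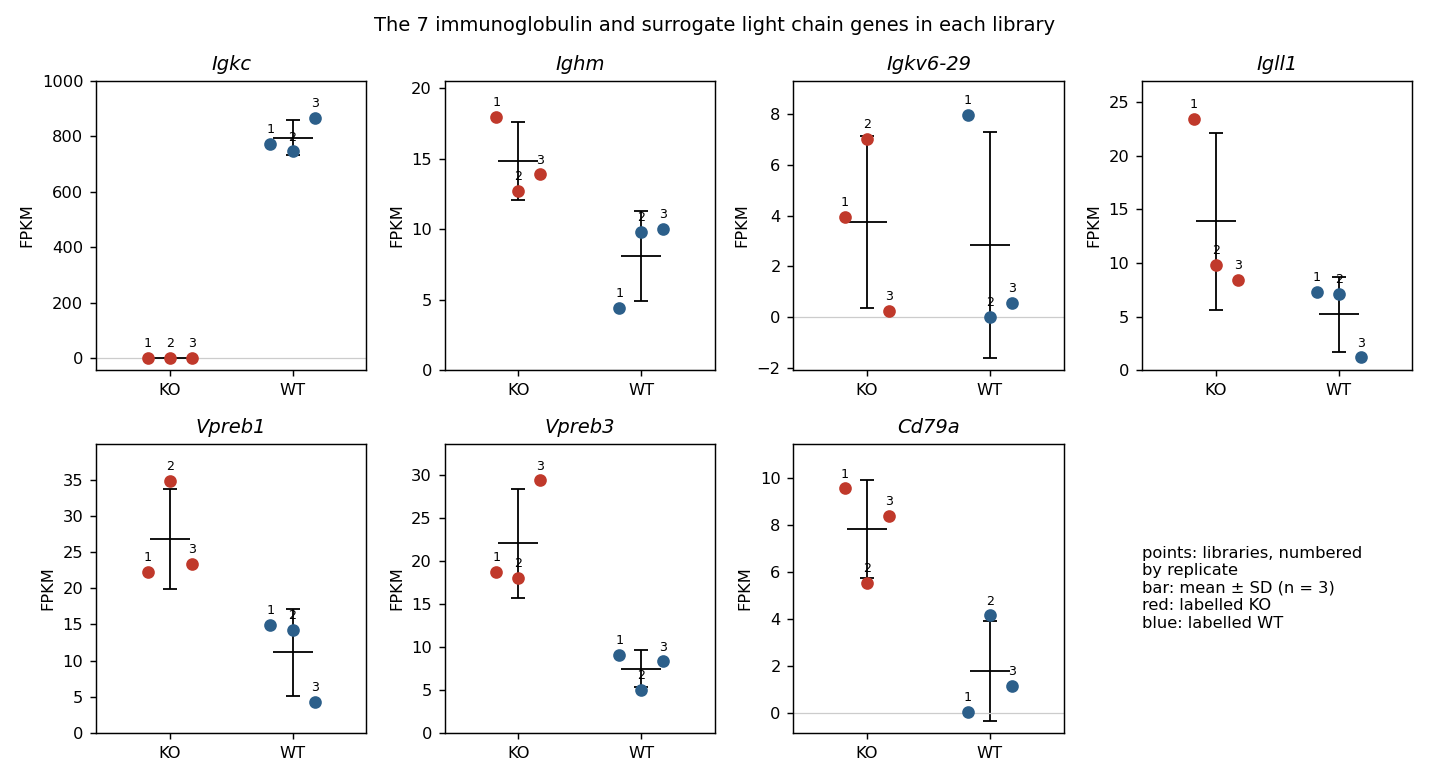
FPKM of each member in each library (vertical axes, linear, a separate scale per gene), with libraries labelled KO in red on the left and WT in blue on the right of each panel, numbered by replicate, and bars for the mean ± SD (n = 3). Igkc is near 0 in the KO-labelled libraries and between 746.1 and 865.8 in the WT-labelled ones, Igkv6-29 overlaps between the groups, and the other 5 genes lie higher in every KO-labelled library.

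The surrogate light chain genes stood higher in the KO-labelled libraries. Igll1, the constant-like part of the surrogate chain (ENSMUSG00000075370.12, chromosome 16, 16860671 to 16863985, minus strand), stood at 23.4, 9.84 and 8.39 FPKM in KO-labelled and at 7.27, 7.15 and 1.20 FPKM in WT-labelled libraries. KO-labelled library 1 was far above the others and WT-labelled library 3 far below, and the lowest KO-labelled value was close to the highest WT-labelled one. The means were 13.9 ± 8.28 FPKM in KO-labelled and 5.20 ± 3.47 FPKM in WT-labelled libraries (SD, n = 3), a ratio of 2.67. The log2 change of 1.36 stood at 0.72 without WT-labelled library 3.

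Vpreb1, the variable-like part (ENSMUSG00000059305.12, chromosome 16, 16868403 to 16870843, minus strand), lies 4418 bp from Igll1. It stood at 22.2, 34.8 and 23.4 FPKM in KO-labelled libraries and at 14.96, 14.2 and 4.23 FPKM in WT-labelled ones. WT-labelled library 3 was again lowest, and the groups did not overlap. The ratio of the means was 2.41, and the log2 change of 1.33 stood at 0.81 without WT-labelled library 3. The ratio of Igll1 to Vpreb1 was 1.05, 0.283 and 0.359 in KO-labelled libraries and 0.486, 0.503 and 0.283 in WT-labelled ones, so the order of these partners differed in KO-labelled library 1 alone. Top3b, a topoisomerase gene whose annotated span overlaps Vpreb1 on the opposite strand, stood at 8.91, 8.82 and 4.52 FPKM in KO-labelled and 8.59, 8.08 and 8.29 FPKM in WT-labelled libraries (log2 change -0.20 ± 0.29 SE, limma adjusted p = 0.885).

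Vpreb2, a near copy of Vpreb1 and not one of the 7 genes, stood at 8.25, 8.20 and 5.06 FPKM in KO-labelled libraries. In WT-labelled libraries it stood at 4.30, 0.144 and 0.139 FPKM, the last of these on 2 reads each. Its log2 change of 2.07 ± 0.59 (SE) did not pass limma's adjusted test over all genes (adjusted p = 0.297). Vpreb1 and Vpreb2 share sequence, with 18.8% of the 50-base windows of Vpreb1 found in Vpreb2 and 32.8% of those of Vpreb2 found in Vpreb1, so the division of reads between them is uncertain.

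Vpreb3, a VPREB-related protein of the B cell receptor assembly pathway (ENSMUSG00000000903.3, chromosome 10, 75943057 to 75949657, plus strand), stood at 18.7, 18.05 and 29.4 FPKM in KO-labelled libraries and at 9.02, 5.03 and 8.31 FPKM in WT-labelled ones. The lowest KO-labelled library was about as far above the highest WT-labelled one as that was above 0. The means were 22.05 ± 6.33 FPKM in KO-labelled and 7.45 ± 2.13 FPKM in WT-labelled libraries (SD, n = 3), a ratio of 2.96. Without any 1 library the log2 change of 1.45 stayed between 1.22 and 1.57 or, without WT-labelled library 1, stood at 1.59.

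Cd79a, the signalling subunit Ig-alpha (ENSMUSG00000003379.7, chromosome 7, 24897381 to 24902197, plus strand), stood at 9.56, 5.54 and 8.40 FPKM in KO-labelled libraries and at 0.0760, 4.16 and 1.16 FPKM in WT-labelled ones. WT-labelled library 1 held 2 reads of it and WT-labelled library 2 held 111. Of the 50-base windows of Cd79a transcripts, 8.31% also occur in the predicted gene Gm32220, so reads there cannot be assigned with certainty. The ratio of the means was 4.35, the largest of the 5 genes that stood higher. Its partner Cd79b, Ig-beta, not one of the 7 genes, stood at 11.01, 37.3 and 40.7 FPKM in KO-labelled and 40.8, 28.2 and 35.8 FPKM in WT-labelled libraries (log2 change -0.41 ± 0.43 SE, limma adjusted p = 0.814). The groups overlapped for Cd79b, with KO-labelled library 1 lowest. The ratio of Cd79a to Cd79b was 0.868, 0.149 and 0.206 in KO-labelled libraries and 0.00186, 0.148 and 0.0324 in WT-labelled ones, below 1 in every library.

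Of the 7 members, all of which were above the expression filter, 5 stood higher in every KO-labelled library than in any WT-labelled one and 1 stood lower. Over all tested genes 8.24% were higher in this sense and 6.99% lower. The members were chosen from these values, so nothing is read from the count. The summed level of Igll1, Vpreb1, Vpreb3 and Cd79a was 73.9, 68.2 and 69.5 FPKM in KO-labelled libraries and 31.3, 30.6 and 14.9 FPKM in WT-labelled ones. This sum differed little among the KO-labelled libraries although KO-labelled library 1 was highest for Igll1 and Cd79a, library 2 for Vpreb1 and library 3 for Vpreb3. WT-labelled library 3 was lowest for Igll1 and Vpreb1, WT-labelled library 2 for Vpreb3 and WT-labelled library 1 for Cd79a and Ighm.

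**Figure D2:**
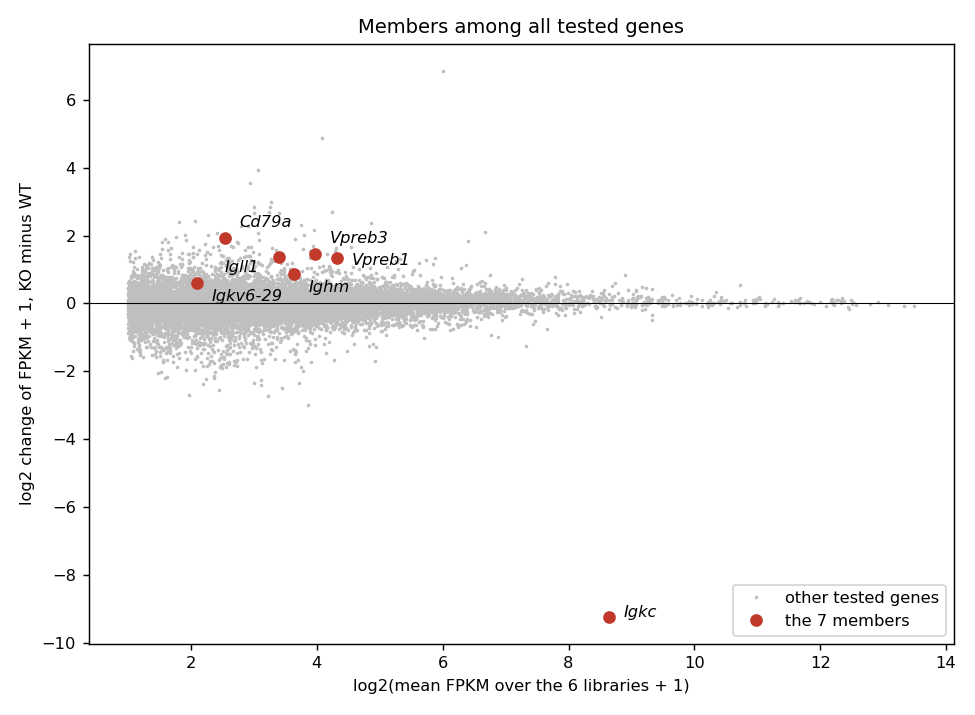
Log2 change of FPKM + 1, KO minus WT (vertical axis), against the log2 of the mean FPKM + 1 over the 6 libraries (horizontal axis) for the 11837 tested genes in grey, with the 7 members in red. Igkc lies at -9.22, and the other 6 members lie between 0.61 and 1.92.

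The rest of the B lineage programme was read from 7 lists with 108 genes that are not members. Of these, 78 had a row, 58 were tested, 1 passed the adjusted threshold of 0.05 in limma, higher in the KO-labelled libraries, and none was called lower. The median log2 change of the 58 was -0.02, beside 0.00 for all tested genes. At an unadjusted p of 0.05, 6 were higher and 1 lower, and over all tested genes 4.87% were higher and 4.33% lower. The 1 gene that passed was Dntt, the terminal transferase that adds bases at the joints of recombined segments. It stood at 18.8, 16.5 and 11.6 FPKM in KO-labelled libraries and at 1.91, 0.596 and 1.59 FPKM in WT-labelled ones (log2 change 2.84 ± 0.33 SE, adjusted p = 0.0125), higher in 3 of 3. Its call ended without KO-labelled library 1 or 2 or WT-labelled library 3, where limma called 0 of these genes, with 9, 8 and 7 at an unadjusted p of 0.05. It also ended without limma's variance trend, with voom on recovered reads and with the replicate number as a block, where 8, 9 and 8 of these genes were at an unadjusted p of 0.05.

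The transcription factors of the B lineage were tested for 12 genes, with none past the adjusted threshold. Tcf3, whose E proteins bind E-boxes, stood at 30.5, 26.5 and 26.6 FPKM in KO-labelled and 14.0, 19.6 and 17.6 FPKM in WT-labelled libraries (log2 change 0.68 ± 0.19 SE, limma adjusted p = 0.29). Spi1, the myeloid and early B factor PU.1, stood at 65.1, 41.7 and 51.6 FPKM in KO-labelled and 87.9, 73.0 and 69.2 FPKM in WT-labelled libraries (log2 change -0.55 ± 0.18 SE, adjusted p = 0.385). Ikzf1, encoding Ikaros, had a log2 change of 0.26 ± 0.18 (SE, adjusted p = 0.692), and Irf8, a factor of myeloid and B cells, one of 0.49 ± 0.35 (SE, adjusted p = 0.718). The factors that fix B cell identity were low in every library and below the filter. Ebf1 stood at 1.59, 0.470 and 0.625 FPKM in KO-labelled and 0.704, 0.0112 and 0.0163 FPKM in WT-labelled libraries. Pax5 stood at 0.690, 0.161 and 0.0434 FPKM in KO-labelled and 0.0250, 0 and 0.0119 FPKM in WT-labelled libraries, without overlap. These values rest on 157, 27 and 8 reads in KO-labelled and 4, 0 and 2 reads in WT-labelled libraries.

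Of the 10 tested recombination and end-joining genes, Dntt apart, none passed. Xrcc6, encoding the end-binding protein Ku70, stood at 27.5 ± 4.37 FPKM in KO-labelled and 19.9 ± 1.22 FPKM in WT-labelled libraries (SD, n = 3; limma adjusted p = 0.511). Polm, a polymerase of end joining related to Dntt, stood at 2.26 ± 0.775 FPKM in KO-labelled and 0.826 ± 0.493 FPKM in WT-labelled libraries (adjusted p = 0.55), and Hmgb2, a DNA-bending cofactor of recombination, at 134.6 ± 16.3 FPKM in KO-labelled and 114.4 ± 7.07 FPKM in WT-labelled libraries (adjusted p = 0.602). The recombinase genes Rag1 and Rag2 were below the filter. Rag1 had 103, 56 and 0 reads in KO-labelled and 15, 91 and 7 reads in WT-labelled libraries, and Rag2 had 4, 40 and 24 in KO-labelled and 0, 0 and 101 in WT-labelled libraries.

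In B cell receptor signalling, 15 genes were tested and none passed, with 6 higher by value and 9 lower and a median log2 change of -0.17. The smallest p-values were those of Dapp1, Syk, Pik3ap1 and Vav1. Dapp1, an adaptor, stood at 183.7 ± 14.1 FPKM in KO-labelled and 207.0 ± 6.75 FPKM in WT-labelled libraries (limma adjusted p = 0.617), and Syk, the kinase that binds phosphorylated CD79A and CD79B, at 6.80 ± 1.75 FPKM in KO-labelled and 10.02 ± 1.91 FPKM in WT-labelled libraries (SD, n = 3; adjusted p = 0.617). Pik3ap1, an adaptor to phosphoinositide 3-kinase, had a log2 change of -1.03 ± 0.63 (SE, adjusted p = 0.662) and Vav1, an exchange factor, one of -0.26 ± 0.18 (SE, adjusted p = 0.712). Blnk, the linker downstream of Syk, was below the filter and had no test. It stood at 0.506, 0.511 and 0.481 FPKM in KO-labelled and 0.222, 0.164 and 0.477 FPKM in WT-labelled libraries. The lowest KO-labelled value, on 60 reads, was barely above the highest WT-labelled one, on 54 reads.

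**Figure D3:**
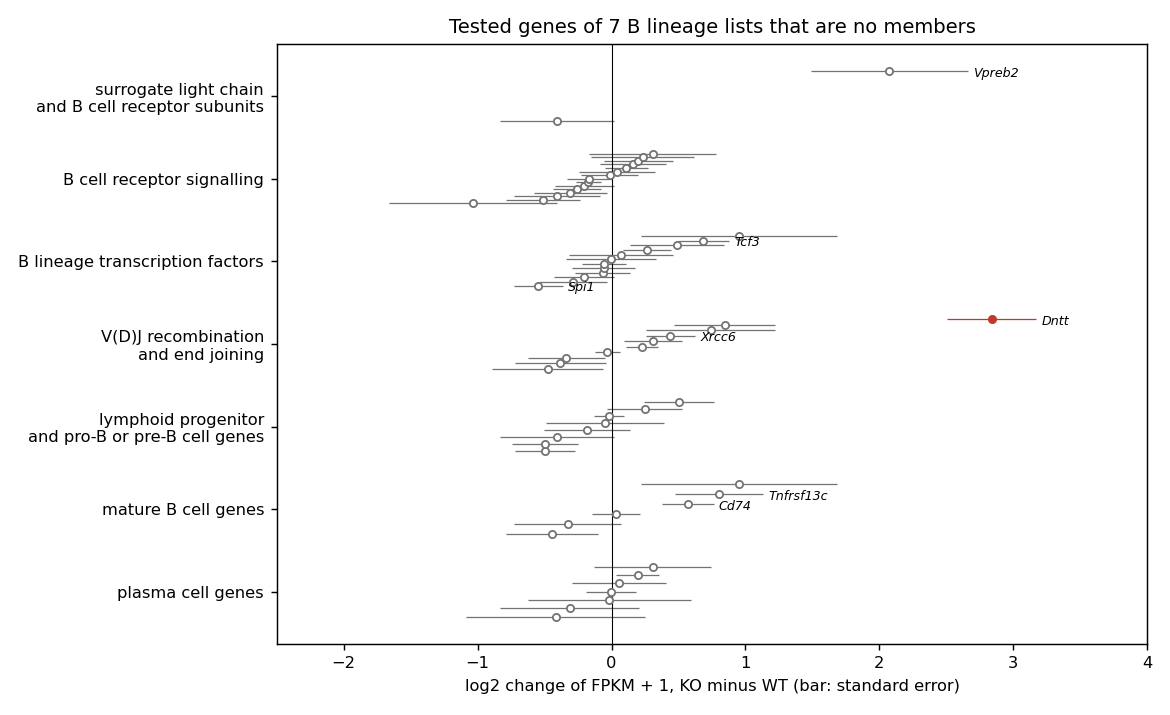
Log2 change of FPKM + 1, KO minus WT, with its standard error (horizontal axis) for each tested gene of the 7 B lineage lists that is not a member (a gene in several lists is drawn in each). The filled red point is Dntt, which passed the adjusted threshold, open points did not, and genes with an unadjusted p under 0.05 are named.

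Stage markers of B cells ran from below the filter up to Cd24a. Its mean was 125.2 FPKM in KO-labelled and 126.6 FPKM in WT-labelled libraries. Of the list for lymphoid progenitors and pro-B or pre-B cells 8 genes were tested and none passed, among them Cd93 (log2 change -0.50 ± 0.22 SE, limma adjusted p = 0.548) and Erg (-0.49 ± 0.25 SE, adjusted p = 0.59). Il7r, the interleukin receptor of early lymphoid cells, had 0, 89 and 15 reads in KO-labelled and 53, 0 and 1 reads in WT-labelled libraries, and the groups overlapped. Of the 20 mature B cell genes, 10 had no row here, Ms4a1, encoding CD20, and Cd22 among them, and 6 were tested. None of the 6 passed. Cd74, the invariant chain of MHC class II, stood at 48.3 ± 9.57 FPKM in KO-labelled and 32.1 ± 5.09 FPKM in WT-labelled libraries (adjusted p = 0.401), and Tnfrsf13c, the BAFF receptor, at 11.5 ± 5.28 FPKM in KO-labelled and 5.84 ± 1.05 FPKM in WT-labelled libraries (SD, n = 3; adjusted p = 0.501). Pou2af1, a coactivator of octamer factors, stood at 2.43, 0.0207 and 5.73 FPKM in KO-labelled and 0, 2.25 and 0 FPKM in WT-labelled libraries (log2 change 0.95 ± 0.73 SE, adjusted p = 0.735). Ralgps2, an exchange factor of RAL proteins, had a log2 change of -0.44 ± 0.34 (SE, adjusted p = 0.739).

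Plasma cells, which secrete antibody and hold the most immunoglobulin mRNA of any B lineage cell, were read from 17 genes. Of these, 9 had no row here, Jchain, Prdm1, Irf4 and Tnfrsf17 among them. None of the 7 tested genes passed in limma, with none at an unadjusted p under 0.05. Xbp1, a secretory factor that stem cells also express, stood at 126.6 ± 26.2 FPKM in KO-labelled and 109.5 ± 13.5 FPKM in WT-labelled libraries (adjusted p = 0.748). Mzb1, a chaperone of antibody secretion, stood at 0, 0.781 and 4.62 FPKM in KO-labelled and 0.820, 0.900 and 2.002 FPKM in WT-labelled libraries (adjusted p = 0.997), and Sdc1, the surface marker CD138, at 2.54, 7.71 and 0.0378 FPKM in KO-labelled and 3.91, 2.65 and 3.23 FPKM in WT-labelled libraries (adjusted p = 0.896). Derl3, of protein degradation at the endoplasmic reticulum, had a log2 change of 0.31 ± 0.44 (SE, adjusted p = 0.877), and Fkbp11, a prolyl isomerase of secretory cells, one of -0.31 ± 0.52 (SE, adjusted p = 0.898). The summed level of the 8 plasma cell genes with a row was 171.3 to 240.0 FPKM in KO-labelled and 171.8 to 185.7 FPKM in WT-labelled libraries. Xbp1 made up most of it, and the 9 genes with no row give no value, so the part of plasma cells in the level of Igkc was not tested.

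**Figure D4:**
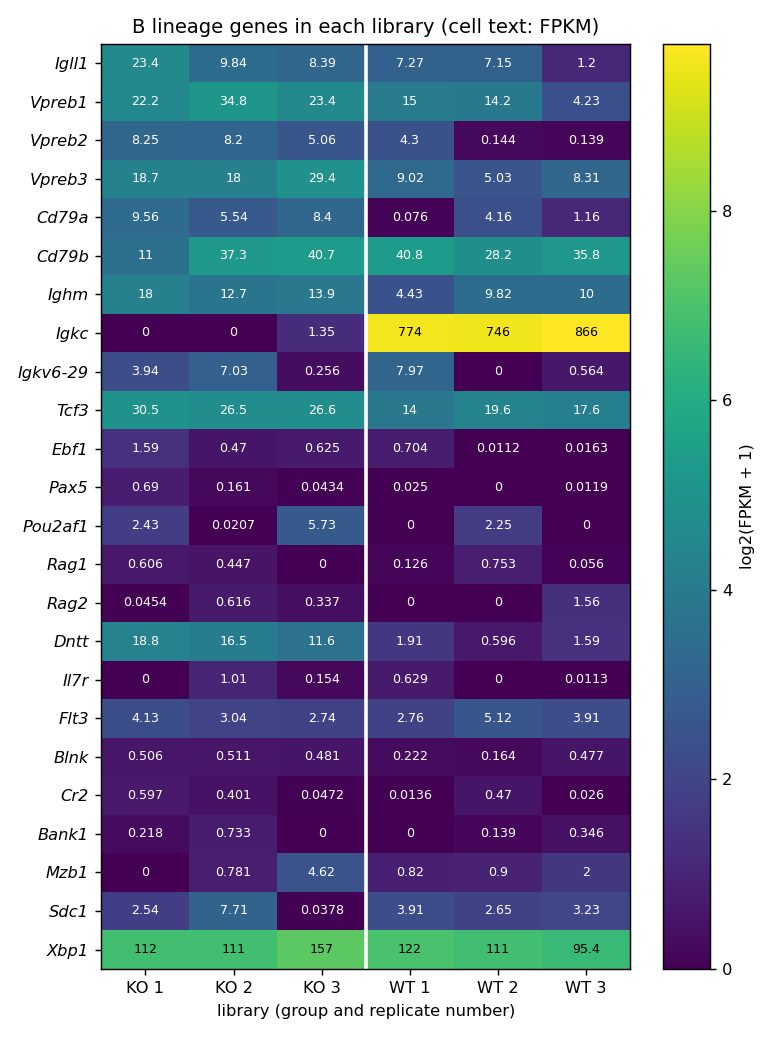
Level of B lineage genes in each library as log2(FPKM + 1) in colour, with the FPKM printed in each cell; columns are the 3 KO-labelled libraries and then the 3 WT-labelled ones, and rows run from receptor subunits over transcription factors and recombination genes to stage markers. Igkc is the one gene shown that is bright in the WT-labelled libraries and dark in the KO-labelled ones, while Ebf1, Pax5, Rag1 and Rag2 stay dark in all 6.

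Among markers of other blood cells, limma called 4 of 5 tested eosinophil, 4 of 7 erythroid and 1 of 7 neutrophil markers higher in KO-labelled libraries, and none of the 2 T cell, 2 NK cell and 3 plasmacytoid dendritic cell markers tested. The 5 eosinophil markers with a row, of 8, summed to 170.4 to 210.9 FPKM in KO-labelled and 1.05 to 3.25 FPKM in WT-labelled libraries, and the 8 erythroid ones to 436.0 to 465.0 FPKM in KO-labelled and 115.2 to 149.0 FPKM in WT-labelled libraries. The 7 neutrophil markers with a row, of 8, summed to 3593 to 4008 FPKM in KO-labelled and 2687 to 2892 FPKM in WT-labelled libraries. S100a9 was the neutrophil marker that passed (log2 change 0.53 ± 0.059 SE, adjusted p = 0.0108), higher in 3 of 3, while the primary granule gene Mpo stood lower, at 49.9 ± 4.65 FPKM in KO-labelled and 67.5 ± 4.07 FPKM in WT-labelled libraries (SD, n = 3; limma adjusted p = 0.34), and Elane had a log2 change of -0.04 ± 0.15 (SE, adjusted p = 0.969). Of 11 T cell markers 3 had a row, Cd3d, Cd4 and Lck. Their sums were 12.5 to 19.1 FPKM in KO-labelled and 3.82 to 14.0 FPKM in WT-labelled libraries. Cd3d stood at 2.68, 3.34 and 5.37 FPKM in KO-labelled and 1.34, 0 and 0 FPKM in WT-labelled libraries (limma adjusted p = 0.208). Cd4 and Lck overlapped between the groups, Cd4 with the lower and Lck with the higher mean in KO-labelled libraries. Of 7 NK cell markers 2 had a row, Klrb1c and Nkg7. Their sums were 291.2 to 309.1 FPKM in KO-labelled and 177.0 to 228.9 FPKM in WT-labelled libraries. Nkg7 made up most of this sum, while Klrb1c overlapped between the groups, with a log2 change of -0.46 ± 0.48 (SE, limma adjusted p = 0.814). For plasmacytoid dendritic cells, a type that can carry heavy chain transcripts, Siglech and Ccr9 had no row and the 3 markers that had one summed to 115.5 to 158.8 FPKM in KO-labelled and 128.8 to 162.8 FPKM in WT-labelled libraries. The T cell and plasmacytoid dendritic cell sums overlapped between the groups. The part of these cells in the levels of the members was not tested.

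Likeness of pattern was measured by Pearson's r on log2(FPKM + 1) over the 6 libraries, which fall into 2 genotype groups, so a gene that differs between them scores high whatever else it does. The named genes most like Igkc were Cebpz (r = 0.996), Dnajb7 (r = 0.993), Plxna4os1 (r = 0.990), Erdr1 (r = 0.987) and Creb3l2 (r = 0.987). In the WT-labelled libraries their levels were far below that of Igkc. Dnajb7, for a chaperone of the DNAJ family, stood at 0.113, 0 and 0 FPKM in KO-labelled and 5.52, 5.45 and 6.35 FPKM in WT-labelled libraries, and Cebpz, for a CCAAT-binding protein, at 12.5, 12.96 and 13.1 FPKM in KO-labelled and 18.1, 17.97 and 18.7 FPKM in WT-labelled libraries. The named genes most like the mean of Igll1, Vpreb1, Vpreb3 and Cd79a were Selp (r = 0.995), Nkg7 (r = 0.992), Ifi35 (r = 0.986), Rps15a-ps2 (r = 0.986) and Arpc2 (r = 0.984). Selp, encoding P-selectin, stood at 11.5, 10.6 and 11.5 FPKM in KO-labelled and 6.49, 7.07 and 5.02 FPKM in WT-labelled libraries. No gene of the B lineage lists was among these 10, and with that mean Vpreb2 had r = 0.782, Dntt r = 0.865 and Tcf3 r = 0.886, while Cd79b had r = -0.441.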

How the data were processed

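The authors deposited 1 table of FPKM per gene symbol with 1 column per library. The submitters' processing notes name mm10 as build and, without versions, fastp, Bowtie2 and featureCounts. Annotation, strand use and the treatment of multiply mapped reads are not given there, which leaves overlapping and near-identical genes uncertain. Reads across introns are not split by Bowtie2.

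Of 14986 symbols, 14671 (97.9%) matched 1 gene of GENCODE M21 (GRCm38). FPKM times exon length rose in steps of 1 read. Of the values below 100 reads, 98.0% were whole within 0.05, which gave the reads per library and per gene. Amplified cDNA without molecular identifiers repeats molecules, so floors (3 reads) and intervals cover counting error only. KO was compared with WT by limma 3.58.1 (R 4.3.3) on log2(FPKM + 1), a scale that shrinks changes at low levels, in the 11837 genes whose mean reached 1 FPKM. The fit used lmFit and eBayes with a trend. Its two-sided p-values were adjusted by Benjamini-Hochberg over all tested genes, with a threshold of 0.05. The procedure was tested on simulated data. Replicates differed by more than counting error (chi-square per gene from 53.1 to 75.6). Same-numbered libraries did not deviate together, so the numbers were not taken as pairs.

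The members and lists were chosen with earlier results of these data known. The text names the 7 members, the other immunoglobulin rows, pathway genes past the threshold or otherwise the 4 of smallest p per list, listed genes with low values or no row, and the 5 most alike. Not every gene taken this way is reported here. Neighbours, overlapping genes and single reads or ratios were added after the values were seen. Promoters are from RefSeq (GRCm38.p6, all 32851 windows), with 4 of the 7 members matched. Figures used matplotlib 3.10.9 (Python 3.11.15). Alternatives changed the pseudocount, filter, scaling, variance model, block and libraries.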

Additional observations from a re-analysis of the deposited data

How the results depend on the processing

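The number of genes past the adjusted threshold, 27 of 11837 (0.228%), was 8 without limma's variance trend, 8 with limma-voom on recovered reads and 11 with the replicate number as a block. It ran from 11 to 19 with 1 library left out. The number of B lineage list genes past it, 1 (Dntt), was 0 without the trend, 0 with voom and 0 with the replicate block, with 8, 9 and 8 at an unadjusted p under 0.05, and ran from 0 to 1 with 1 library left out. Correlations of deviations between same-numbered libraries were 0.0235, 0.0071 and 0.0037, so the numbers gave no sign of pairing. The cause of these differences was not tested. Among member changes, that of Igkv6-29 ran from -0.026, without WT-labelled library 2, to 1.56, without WT-labelled library 1. That of Igkc moved to -11.67 with a pseudocount of 0.1, -10.003 with 0.5 and -9.83 after rescaling to a fixed total, and that of Cd79a to 2.98 with 0.1. The other 65 of 70 member values moved by less than 1 SD between replicates. Depth limits members at a few reads, such as Cd79a in WT-labelled library 1.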

Other observations

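Beside Vpreb3 on chromosome 10, the zinc finger gene Zfp280b, 82993 bp downstream, stood at 7.13, 4.71 and 6.38 FPKM in KO-labelled and 1.63, 1.46 and 1.24 FPKM in WT-labelled libraries (log2 change 1.52 ± 0.30 SE, limma adjusted p = 0.129). It did not pass over all genes, although every KO-labelled library was above every WT-labelled one. Chchd10, a mitochondrial gene 5310 bp upstream of Vpreb3, had a log2 change of 0.41 ± 0.23 (SE, adjusted p = 0.625). Both were picked after their values were seen. Of the genes around Cd79a, Arhgef1, 715 bp downstream, had a log2 change of -0.24 ± 0.19 (SE, adjusted p = 0.745), and the ribosomal protein gene Rps19, 7575 bp upstream, one of -0.12 ± 0.13 (SE, adjusted p = 0.836). The predicted gene Gm9844, 34684 bp upstream of Cd79a, was the one listed neighbour of Cd79a past the threshold. It stood at 1447, 1410 and 1497 FPKM in KO-labelled and 1156, 1151 and 1126 FPKM in WT-labelled libraries (log2 change 0.34 ± 0.051 SE, adjusted p = 0.042).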
